A study of Rattus norvegicus with 7 samples.

Results

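The genes described here carry the family names of membrane traffic: Rab, Arf, Arl, Stx (syntaxin), Vamp (vesicle-associated membrane protein), Vps (vacuolar protein sorting) or Snx (sorting nexin), directly followed by a number. On the rat array, 96 transcript probes matched a RefSeq transcript of such a gene, for 80 genes, out of 6046 genes that could be named this way. All 80 passed the filter on dim probes, which 5677 named genes passed, and the brightest probe, by mean signal, stands for each gene. They were 31 Rab, 4 Arf, 12 Arl, 11 Stx, 5 Vamp, 9 Vps and 8 Snx genes. Of the 80, 73 belong to the families proper, and the other 7 (Arl14ep, Arl2bp, Arl6ip5, Arl6ip6, Rab3il1, Rab3ip and Rab5if) carry a family name as partners of a member. The rule for members uses names alone, and the probe that stands for a gene was picked by its mean signal over all 7 arrays.

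RNA was measured in whole brain of adult male rats of a pair of lines of Wistar stock: 4 rats of the alcohol-preferring line (P) and 3 of the alcohol non-preferring line (NP). Both lines were made by selective breeding, all rats were alcohol naive and doubly housed, and neither group carried a treatment or an introduced allele. Each group is 1 line, so differences in drinking preference and all other differences between the lines cannot be told apart. Each rat had an array of its own, so the replicates were separate animals. The authors left out a further NP array for its quality, so that NP 2, NP 3 and NP 4 stand beside P 1 to P 4.

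Rab proteins are small GTPases that mark membranes and recruit the motors, tethers and adaptors that carry vesicles between compartments. Arf and Arl proteins are a second group of small GTPases, which recruit coats and effectors at the Golgi, endosomes and lysosomes. Syntaxins and VAMPs are SNAREs, the proteins whose pairing across apposed membranes drives fusion, and in neurons they carry out the release of transmitter. Vps proteins and sorting nexins form complexes, among them the retromer and the tethers HOPS and GARP, that sort cargo out of endosomes and deliver it to lysosomes, the Golgi or the cell surface.

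Signals are log2 values after background correction and normalization between arrays, so that a difference of 1 is 2-fold. They compare rats on the same probe, and a level on one probe says nothing of the level of another gene. Between 77.9% and 85.9% of transcript probes lay above background on each array. Per the file headers, NP 2, NP 3, P 1 and P 2 shared a scan date, here called date 1. Date 2 holds NP 4 alone, and date 3 holds P 3 with P 4. The median local background was 66 and 67 intensity units on P 3 and P 4 and between 56 and 58 on the other arrays. The lines therefore overlap only on date 1, and the comparison of lines is given without and with the scan date as a block. In whole brain, fewer cells of a type and less RNA per cell cannot be told apart. Of 43 markers of brain and neighbouring cell types that could be tested, 38 lay above background on all 7 arrays. Among them were Mbp of oligodendrocytes, Gfap of astrocytes and Nefm of neurons. Only probes above background on at least 3 of 7 arrays were tested, so markers without such a probe are left out. All 7 listed astrocyte markers were tested, but 6 of 10 neuron and 4 of 7 vascular markers.

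The first comparison asked whether traffic genes differ between the lines. At an adjusted p under 0.05 (limma, Benjamini-Hochberg over all 29003 probes tested), 0 of the 80 genes differed, against 0.176% of all named genes and 0.29% of all probes. At an unadjusted p under 0.05, 6 of the 80 differed (7.5%), 5 of them higher in P, whereas 11.4% of all named genes did, 7.05% higher in P and 4.35% lower. The differences were small. Their median was -0.0042 and they ran from -0.50 (Rab5a) to 0.49 (Rab15), with 39 above 0 and 41 below. The median size of a member's difference was 0.136, with a median SE of 0.155, and over all named genes the median size was 0.144. Of 74 members with a value on all 7 arrays, 5 had P and NP values that did not overlap (6.76%), against 12.5% of all genes with 7 values. Arf5, Vamp5 and Vps35l lay higher in every P rat (7.61% of genes did), and Rab5a and Stx4 lower in every P rat (4.87% of genes). Without P 3 and P 4, 7 members were called, 3 higher and 4 lower in P, beside 11.4% of all probes. Differences of 0.5 could seldom be called with 7 arrays: in simulated data with these spreads, 9.95% of changes of that size were recovered, and 70.1% of changes of 1.

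**Figure D1:**
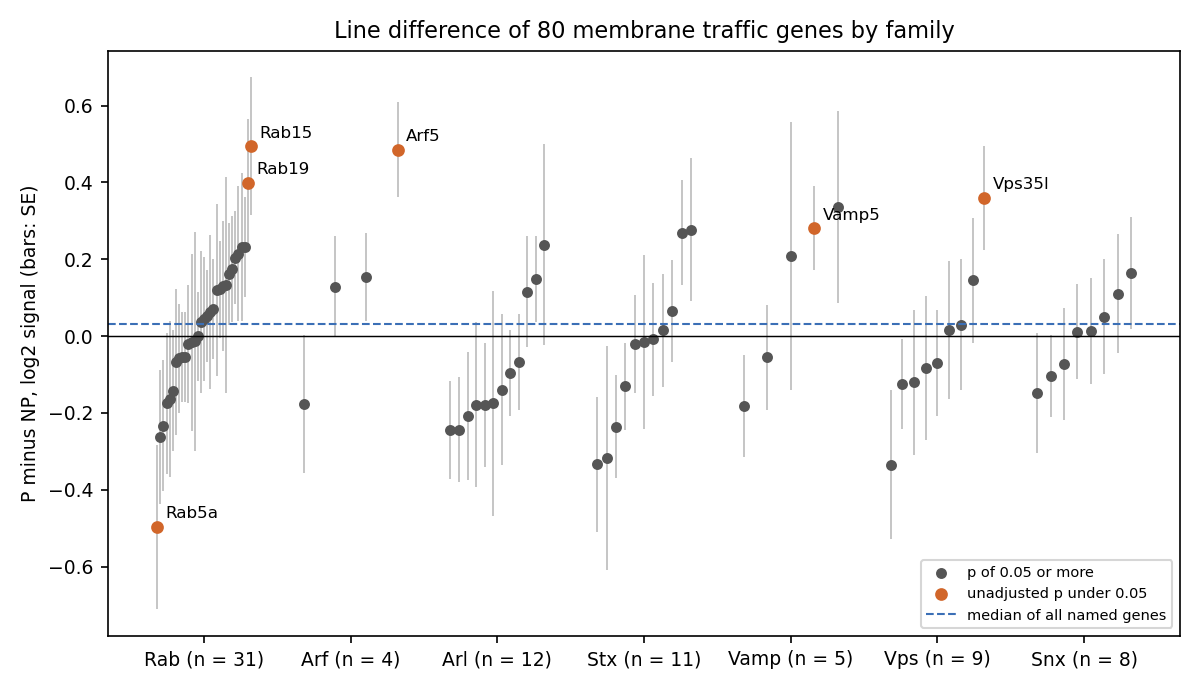
Difference in log2 signal between P and NP (P minus NP, y axis) for each of the 80 genes, sorted within its family (x axis), with bars of 1 SE from limma without a block. Orange points are the 6 genes with an unadjusted p under 0.05, and the dashed line is the median of all named genes (0.03). All 7 families straddle 0, and the largest differences are about 0.5.

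Among the Arf GTPases, which recruit coat proteins to the Golgi, Arf5 had the smallest p of all 80 genes. Its signal was 10.99, 10.81 and 10.84 in NP 2, NP 3 and NP 4, and 11.52, 11.21, 11.26 and 11.46 in P 1 to P 4. Every P rat lay above every NP rat. The difference was 0.49 ± 0.12 (SE), with a p of 0.00264 and an adjusted p of 0.245 (limma), and 0.47 with scan date as a block. Arf1, the classic regulator of the COPI coat, differed by 0.15 ± 0.11 and Arf4 by -0.18 ± 0.18, the latter without NP 2, whose spot was flagged. Arf3, a close relative of Arf1, differed by 0.13 ± 0.13. The values of these 3 genes overlapped between the lines. Arf6, which acts at the plasma membrane, was not analysed here.

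The Rab family gave 3 of its 31 members an unadjusted p under 0.05. Rab5a, the GTPase of early endosomes, read 9.02, 8.97 and 9.05 in the NP rats and 8.48, 7.90, 8.72 and 8.96 in P 1 to P 4. The NP rats lay close together, whereas P 2 lay lowest and P 4 reached just under the lowest NP rat. The difference was -0.50 ± 0.21 (adjusted p = 0.418, limma). Rab15, a Rab of recycling endosomes, differed by 0.49 ± 0.18 (adjusted p = 0.387, limma) on 4 arrays, 8.84 and 8.91 in NP 3 and NP 4 and 9.52 and 9.21 in P 3 and P 4. The other 3 spots were flagged, so no array of P on date 1 remained and no blocked value could be had. Rab19 differed by 0.40 ± 0.17 (adjusted p = 0.411, limma) close to background: it was above background in 3 of 4 P rats and 1 of 3 NP rats.

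Apart from Rab5a, the well known Rabs of nerve terminals and endosomes given next overlapped between the lines. All but 12.5% of genes with 7 values did so too. Rab3a, the synaptic vesicle Rab, read 12.91, 12.47 and 12.21 in the NP rats and 13.35, 12.72, 11.97 and 12.62 in P 1 to P 4. P 1 gave the highest value and P 3 the lowest, so the P rats spanned the whole NP range, and the difference was 0.13 ± 0.28. Rab7a of late endosomes differed by -0.23 ± 0.17, Rab11a of recycling endosomes by 0.05 ± 0.12, and Rab27a, which acts in regulated secretion, by -0.05 ± 0.12. Rab35, which acts in recycling to the cell surface, differed by 0.20 ± 0.12. Over the whole family, differences ran from -0.50 to 0.49 with a median of 0.05, and 17 of 31 lay above 0.

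In the Arl family, 9 of 12 differences lay below 0, with a median of -0.16 and a range of -0.24 to 0.24. The same count of 9 was found after scaling the arrays to a common median, after cyclic loess and in the authors' log2 values. These settings use the same rats, so they cannot show whether the count depends on P 1 and P 2. With scan date as a block, which leaves out P 3 and P 4 from the line difference, the Arl median was -0.37. Between scan dates within P, the Arl median was 0.29, higher on date 3. Of the 5677 named genes tested, 2485 had a line difference below 0 without the block. No Arl gene reached an unadjusted p under 0.05 without the block. Arl4a differed by -0.24 ± 0.13, Arl3, which acts in cilia, by -0.24 ± 0.14 and Arl2, a regulator of tubulin folding, by 0.15 ± 0.11. Arl8b, which couples lysosomes to kinesin, differed by -0.18 ± 0.29, the widest error of the family.

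Of the 11 syntaxins, 0 had an unadjusted p under 0.05 (limma). Stx1a, the plasma membrane SNARE of synaptic release, read 11.26, 11.57 and 11.35 in the NP rats and 11.70, 11.91, 11.53 and 11.51 in P 1 to P 4. P 1 and P 2 lay above all NP rats, P 3 and P 4 did not, and the difference was 0.27 ± 0.14 (adjusted p = 0.466, limma). Stx4, a plasma membrane syntaxin of many cell types, read 9.46, 9.42 and 9.38 in the NP rats and 9.14, 8.58, 9.25 and 9.36 in P 1 to P 4. All P rats lay below all NP rats, P 4 by the smallest margin, and the difference was -0.33 ± 0.18 (adjusted p = 0.475). Stx3 differed by -0.24 ± 0.13 near background, where it was detected in 1 of 4 P rats and 3 of 3 NP rats. Stx6, a syntaxin of the trans-Golgi network, differed by -0.13 ± 0.11.

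Among the VAMPs, Vamp5, first described in muscle, read 7.96, 8.05 and 7.89 in the NP rats and 8.19, 8.32, 8.27 and 8.22 in P 1 to P 4. The P rats lay close together and above every NP rat. The difference was 0.28 ± 0.11 (adjusted p = 0.384, limma). Vamp1 and Vamp2, the vesicle SNAREs of transmitter release, differed by 0.34 ± 0.25 and 0.21 ± 0.35. Vamp3, their widely expressed relative, differed by -0.06 ± 0.14 and Vamp8, a VAMP of late endosomes, by -0.18 ± 0.13.

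In the sorting machinery, Vps35l, a subunit of the retriever complex that returns cargo from endosomes to the cell surface, read 7.79, 8.10 and 8.01 in the NP rats and 8.53, 8.41, 8.20 and 8.16 in P 1 to P 4. All P rats lay above all NP rats, P 4 by the smallest margin, and the difference was 0.36 ± 0.14 (adjusted p = 0.382, limma). Vps26a, a retromer subunit, differed by 0.02 ± 0.18, Vps54 of the GARP tether by -0.33 ± 0.19 and Vps16 of HOPS by -0.12 ± 0.12. The retromer core gene Vps35 and the ESCRT ATPase gene Vps4a were not analysed here. The 8 sorting nexins kept closest together, with differences from -0.15 (Snx24) to 0.17 (Snx11). Snx27, which links cargo to retromer, differed by 0.01 ± 0.12, Snx1, a retromer-associated nexin, by 0.11 ± 0.16, and Snx7 by -0.10 ± 0.11. Snx5 was not analysed here.

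With scan date as a block, the line difference rests on P 1 and P 2 against NP 2 and NP 3. It could be estimated for 78 members, without Rab15 and Stx5, and 4 of them were called (5.13%), against 5.59% of all named genes and 5.73% of probes. Vamp2 was higher in P, where 2.1% of all genes were called higher, and Rab5a, Stx7 and Arl8b were lower, where 3.48% were. The share of members called was thus close to that of all genes. Of 42 cell type markers, 3 were called in the same fit (7.14%). Kdr of vascular cells was higher in P (0.75), and Nefm of neurons (-0.81) and Aif1 of microglia (-1.23) were lower. Other markers of these types did not all follow. The median blocked difference was 0.38 over 4 vascular, -0.04 over 5 neuron and 0.04 over 7 microglia markers. The part of cell types in the result was not tested.

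The RefSeq promoters of these 4 genes are shown because they are the members with a called difference (GRCr8; 250 bases before the annotated start, written 5′ to 3′ on the strand of the gene). Capitals mark matches, on either strand, to CACGTG (the E-box of the CLEAR motif of lysosomal genes), TGACGTCA (the CRE), CCAAT (the CCAAT box) and GGGCGG (the GC box), and a match is a description, not a bound site. The regions are chr10:54292539-54292788 (plus strand) for Vamp2, chr9:6720877-6721126 (plus strand) for Rab5a, chr1:23056466-23056715 (minus strand) for Stx7 and chr4:143304381-143304630 (plus strand) for Arl8b.
Vamp2: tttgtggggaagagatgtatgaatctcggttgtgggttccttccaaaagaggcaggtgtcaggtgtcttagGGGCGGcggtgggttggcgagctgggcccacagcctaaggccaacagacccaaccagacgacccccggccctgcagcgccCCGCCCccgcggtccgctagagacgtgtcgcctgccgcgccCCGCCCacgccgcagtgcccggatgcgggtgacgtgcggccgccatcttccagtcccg
Rab5a: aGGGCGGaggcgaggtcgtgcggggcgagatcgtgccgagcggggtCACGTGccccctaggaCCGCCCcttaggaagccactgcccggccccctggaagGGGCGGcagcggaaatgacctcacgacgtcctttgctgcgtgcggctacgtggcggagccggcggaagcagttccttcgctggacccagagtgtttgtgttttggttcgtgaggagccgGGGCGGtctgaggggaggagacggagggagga
Stx7: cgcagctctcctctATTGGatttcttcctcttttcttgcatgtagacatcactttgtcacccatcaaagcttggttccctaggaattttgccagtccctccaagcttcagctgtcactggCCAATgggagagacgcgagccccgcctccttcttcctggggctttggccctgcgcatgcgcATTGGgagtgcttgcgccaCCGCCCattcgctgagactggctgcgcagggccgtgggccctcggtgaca
Arl8b: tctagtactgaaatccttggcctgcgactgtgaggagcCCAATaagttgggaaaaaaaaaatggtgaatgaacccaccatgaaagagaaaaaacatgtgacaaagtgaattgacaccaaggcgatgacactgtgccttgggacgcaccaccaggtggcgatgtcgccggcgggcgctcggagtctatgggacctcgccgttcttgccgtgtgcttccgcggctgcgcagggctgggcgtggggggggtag
The Vamp2 window held 3 GC boxes. The Rab5a window held 4 GC boxes and 1 CACGTG, Stx7 held 3 CCAAT boxes and 1 GC box, and Arl8b held 1 CCAAT box. None of the 4 motifs was found in all 3 genes that were lower in P. A promoter was at hand for 69 members, of which 73.9% held GGGCGG, 37.7% CCAAT, 14.5% CACGTG and 4.35% TGACGTCA. The same windows of all tested named genes with a promoter, 4562 in number, held them in 53.4%, 36%, 7.78% and 2.59%.

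Vamp2, the main vesicle SNARE of transmitter release, read 11.04 and 10.60 in NP 2 and NP 3, and its spot in NP 4 was flagged. It read 11.66 and 11.49 in P 1 and P 2 but 10.45 and 10.50 in P 3 and P 4. The P rats of date 1 lay above both NP rats and those of date 3 below both. The blocked difference was 0.76 ± 0.16 (adjusted p = 0.0322, limma). Rab5a, whose values stand above, had a blocked difference of -0.81 ± 0.19 (adjusted p = 0.0385, limma).

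Stx7, the syntaxin of late endosomes, read 9.11 and 9.15 in NP 2 and NP 3 and 9.39 in NP 4. P 1 and P 2 read 8.65 and 8.09, below all NP rats, while P 3 and P 4 read 9.45 and 9.41, above them. The blocked difference was -0.76 ± 0.17 (adjusted p = 0.0383, limma). Arl8b read 10.71, 10.82 and 10.91 in the NP rats, 10.28 and 9.91 in P 1 and P 2, and 11.34 and 11.03 in P 3 and P 4. It followed the order of Stx7, and its blocked difference was -0.67 ± 0.16 (adjusted p = 0.0439, limma). All 4 genes lost their call without NP 3 or without P 2, and all but Vamp2 lost it without NP 2. The share of all probes called was then 0.368%, 0.251% and 0.636%. Without P 1, Vamp2 lost its call and Rab21 and Stx4 gained one, beside 3.16% of all probes. With median scaling or cyclic loess Vamp2 alone of the 4 stayed called, and normexp without the local background left Vamp2 and Stx7. In these settings 2.14%, 3.3% and 3.91% of all probes were called. None of the 4 was called from the background-subtracted signal or from the authors' log2 values, where 0.235% and 0.163% of all probes were called and 12 and 11 members had an unadjusted p under 0.05.

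**Figure D2:**
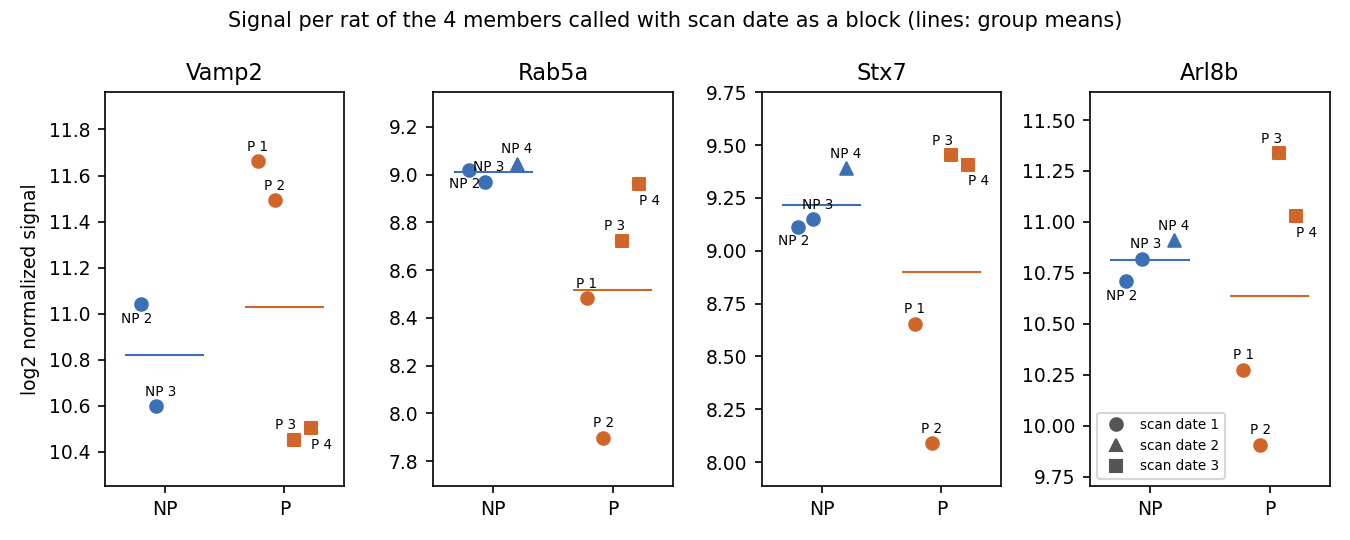
Log2 signal (y axis, a scale per gene) of each rat by line (x axis) for the 4 genes called with scan date as a block; symbols give the scan date, and horizontal lines are the means of NP and P. In Vamp2, P 1 and P 2 lie above the NP rats and P 3 and P 4 below, while in Stx7 and Arl8b the order is turned round.

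The P rats themselves differed by scan date. In P 3 and P 4 against P 1 and P 2, 15 of 79 members were called (19.0%; limma, same fit), 9 higher and 6 lower on date 3, against 18.4% of all named genes, 8.83% higher and 9.61% lower. Scan date and the rats it holds cannot be told apart. This comparison shares P 1 and P 2 with the blocked one, so the 2 sets of values are given side by side and are not independent.

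Arl8b and Stx7 led the 9 genes that were higher on date 3. Arl8b was higher by 1.09 ± 0.16 (adjusted p = 0.00476) and Stx7 by 1.06 ± 0.17 (adjusted p = 0.00599). Rab21, a Rab that acts in integrin traffic, read 7.83 and 7.23 in P 1 and P 2, 8.53 and 8.59 in P 3 and P 4, and between 8.02 and 8.10 in the NP rats. The NP rats thus lay between the P rats of the 2 dates, and the difference was 1.03 ± 0.18 (adjusted p = 0.00711, limma). Rab28 was higher by 0.77 ± 0.16, Rab5a by 0.65 ± 0.19, Arl6ip5, a partner of Arl6, by 0.64 ± 0.19 and Vps26a by 0.57 ± 0.14. Arl5a (0.64 ± 0.15) and Arl14ep (0.52 ± 0.15) complete the 9 and were named after their values were seen.

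Vamp2 led the 6 genes that were lower on date 3, at -1.10 ± 0.16 (adjusted p = 0.00455, limma). Rab3ip, an exchange factor of Rab8, differed by -0.80 ± 0.15. Rab4b of recycling endosomes differed by -0.59 ± 0.16, Vps39 of HOPS by -0.59 ± 0.15 and Rab7a by -0.54 ± 0.14. Rab3a differed by -0.74 ± 0.25 and was not called (adjusted p = 0.0741, limma).

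**Figure D3:**
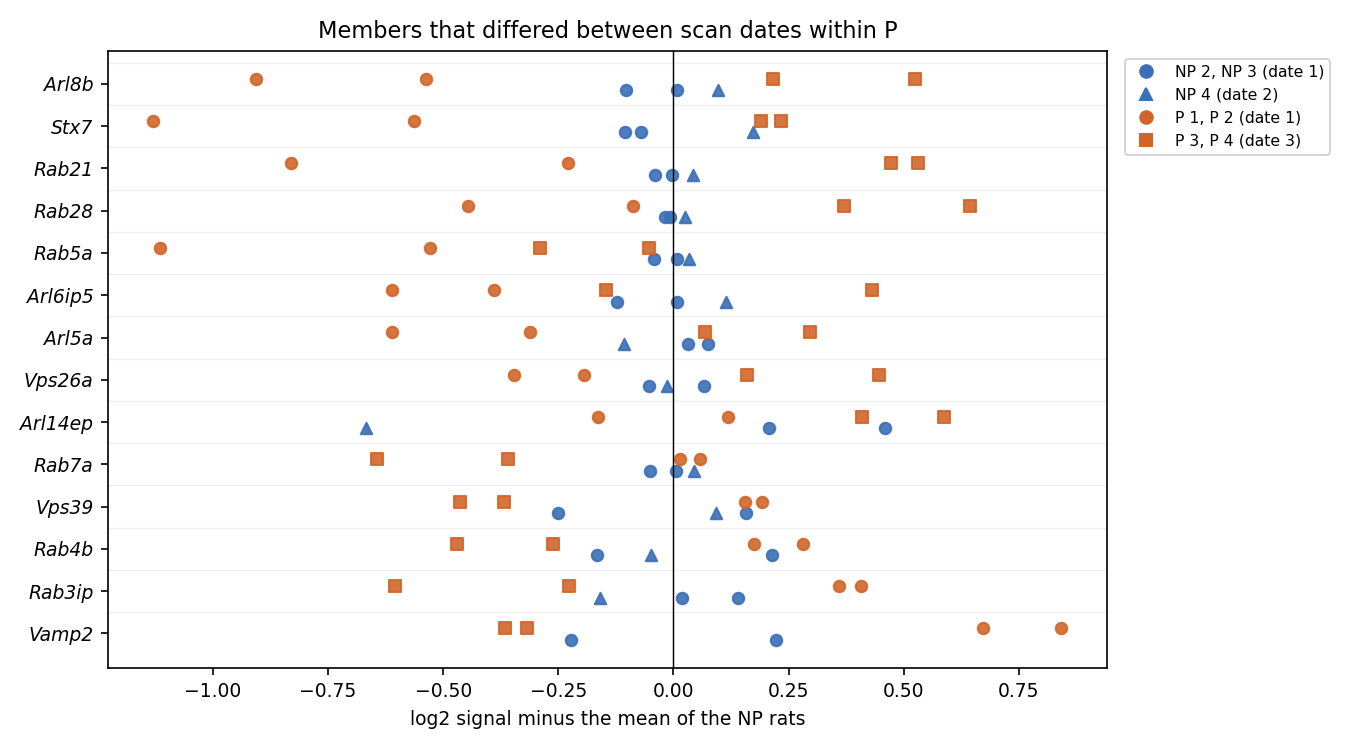
Log2 signal of each rat minus the mean of the NP rats (x axis) for 14 of the genes called between P 3 and P 4 (squares) and P 1 and P 2 (orange circles); NP rats are blue. P 1 and P 2 lie left of P 3 and P 4 in the upper 9 genes and right of them in the lower 5. In the top 4 genes, Vps26a, Rab3ip and Vamp2 the NP values lie between.

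By family, 4 of 12 Arl genes were called, all higher on date 3, beside 18.4% of all named genes called and 8.83% called higher. Arl5a and Arl8b are Arl genes proper, whereas Arl6ip5 and Arl14ep carry the name as partners. Of 30 Rab genes, 3 were called higher and 3 lower. Vps had 1 in each direction, and Arf and Snx 0 (limma), with differences from -0.42 to 0.25 and an unadjusted p under 0.05 in 1 gene of each, Arf3 and Snx15, the latter named after its values were seen. Without P 2, 2 of the calls remained, Vamp2 among them, and without P 3 there were 9, beside 1.37% and 6.41% of all probes. From the background-subtracted signal and from the authors' log2 values 0 members were called, with 27 and 28 at an unadjusted p under 0.05 (limma), beside 1.99% and 0.0138% of all probes called. With the arrays scaled to a common median there were 24, 18 higher and 6 lower, beside 23.9% of all probes. Cell type markers also differed between these rats: 7 of 41 were called (17.1%). Nefm of neurons (1.21) and Aif1 of microglia (0.75) were higher on date 3. Gfap of astrocytes (-0.71), Cd68 (-0.60) and Itgam (-0.43) of microglia, and Kdr (-0.83) and Pdgfrb (-0.89) of vascular cells were lower. The median date difference was 0.01 over neuron, -0.06 over microglia, 0.13 over astrocyte and -0.54 over vascular markers. The summed level of 3 vascular markers was 3076 and 3197 in P 1 and P 2 and 2382 and 2544 in P 3 and P 4, against 2419 to 2707 in the NP rats. Such a sum of unlogged signals follows its brightest probe, here Cldn5, which was not called between dates (-0.24, adjusted p = 0.230, limma). The sum of 6 oligodendrocyte markers was 21883 and 22322 on date 1 and 24077 and 26266 on date 3, against 22402 to 26453 in the NP rats, and the smallest adjusted p of the 6 was 0.111 (Mbp, limma). Their part in the result was not tested.

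A second tested probe was present for 15 of the 80 genes, and showed how far a value depends on the probe. The line difference had the same sign on both probes in 11 of 15 genes, with a median gap of 0.116. The widest gap, 0.37, was in Stx7, at -0.32 on the brighter probe and 0.05 on the other. Vps35l was 0.36 ± 0.14 and 0.21 ± 0.14, Rab3a 0.13 and 0.17, and Rab35 0.20 and 0.24. Opposite signs were found in Stx7, Rab43, Rab27a and Arl6ip6.

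Between scan dates within P, the difference had the same sign on both probes in 8 of 15 genes. Both probes of Stx7 were called higher on date 3, at 1.06 and 1.03 (adjusted p = 0.0118 for the second, limma). With the block, its second probe gave -0.59 (adjusted p = 0.116) beside the -0.76 of the first. Rab7a was called on its brighter probe (-0.54) and not on its second (-0.01). The reverse held for Snx1 (-0.14 and 0.82), Rab11a (0.12 and 0.59) and Arl1 (0.39 and 0.49), where the second probe alone was called. Arl1, a GTPase of the trans-Golgi, was also called with the block on its second probe alone, at -0.56 (adjusted p = 0.0465, limma) against -0.51 on the brighter one.

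**Figure D4:**
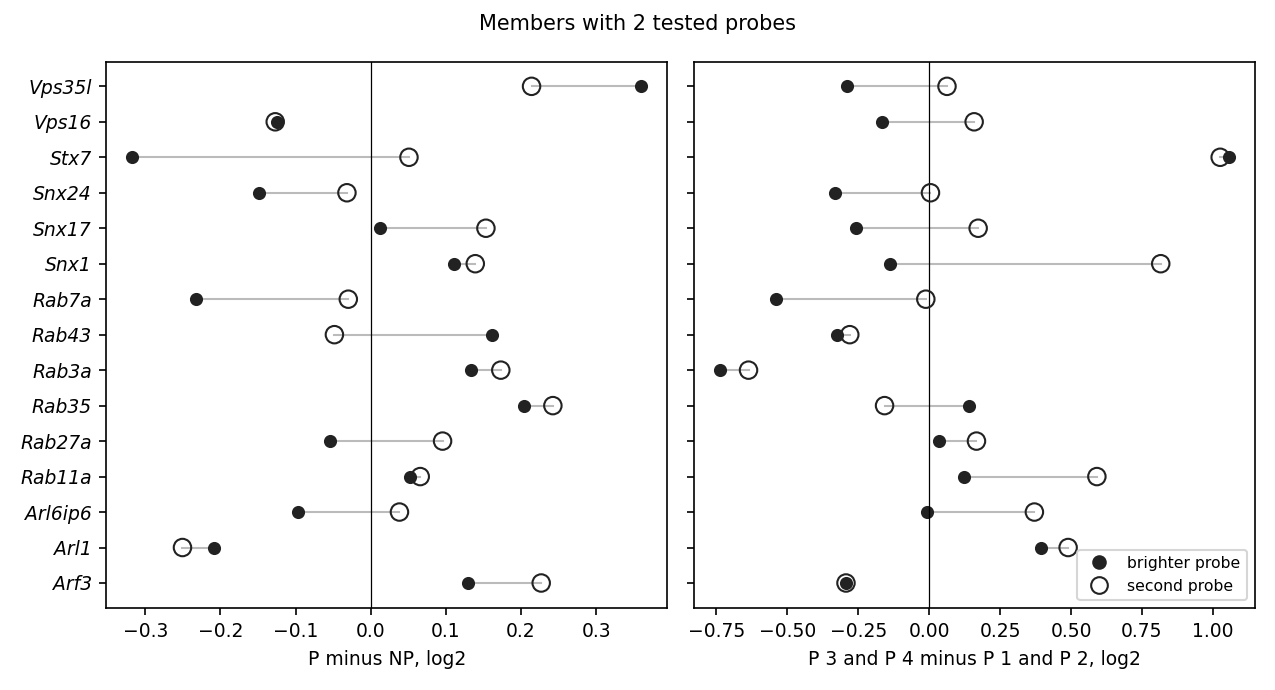
Log2 difference on the brighter probe (filled) and the second probe (open) for the 15 genes with 2 tested probes (y axis), for P minus NP (left) and for P 3 and P 4 minus P 1 and P 2 (right). In the left panel the pairs lie within 0.37 of each other, and in the right panel Snx1 shows the widest pair.

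The partners of these families were read from 6 lists written from textbook membership: SNARE partners, Rab regulators, Arf regulators, coat proteins, tethers, and ESCRT with other endosomal sorting genes. Of 123 genes tested, 0 were called between the lines, against 0.176% of all named genes, and 13 had an unadjusted p under 0.05 (limma), as did 11.4% of all named genes. The list medians ran from -0.02 (tethers) to 0.07 (ESCRT), beside 0.03 for all named genes. Picalm, a clathrin adaptor of endocytosis, differed by 0.87 ± 0.22 and Bet1l, a Golgi SNARE, by 0.53 ± 0.13 (both adjusted p = 0.245). Without P 2, Picalm was called. Rabep1, an effector of Rab5, read 10.32, 10.32 and 10.34 in the NP rats and 9.78, 9.54, 9.97 and 10.10 in P 1 to P 4. Every P rat lay below every NP rat, which held for 4.87% of all genes with 7 values. The difference was -0.48 ± 0.14 (adjusted p = 0.303, limma). Sar1b, the GTPase of the COPII coat, differed by -0.55 ± 0.16 (adjusted p = 0.302), Gorasp1, a Golgi stacking protein, by 0.44 ± 0.15 (adjusted p = 0.340), and Hgs, of the first ESCRT complex, by 0.51 ± 0.17 (adjusted p = 0.352). Sar1b also lay lower in every P rat, and Picalm, Bet1l and Gorasp1 lay higher in every P rat, as did 7.61% of genes with 7 values.

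Once scan date entered as a block, 12 of the 123 were called (9.76%), 5 higher and 7 lower in P. Of all named genes, 5.59% were called, 2.1% higher and 3.48% lower. The blocked values leave out P 3 and P 4 from the line difference. All 12 had the opposite sign between scan dates within P. Those date differences ran from 0.37 (Rabep1) to 0.93 (Trappc13) in the 7 lower genes. In the 5 higher genes they ran from -0.99 (Dnm3) to -0.37 (Gorasp1). Both comparisons share P 1 and P 2, so they are not independent. The blocked count of the lists was not repeated under other processing. The lower ones were Rabep1 (-0.66), Gdi2, which extracts Rab proteins from membranes (-0.58), Sar1b (-0.75), Scfd1, a syntaxin-binding protein of the early secretory route (-0.80), the TRAPP tether subunits Trappc2 (-0.56) and Trappc13 (-0.65), and Chmp5 of ESCRT (-0.66). The higher ones were Iqsec3, an Arf exchange factor (0.76), Dnm3, a dynamin (0.79), Synj2, a phosphoinositide phosphatase of endocytosis (0.70), Gorasp1 (0.54) and Ehd2 (0.72). Between scan dates within P, 27 of 123 were called (22%), 9 higher and 18 lower on date 3, near the 18.4% of all named genes (8.83% higher and 9.61% lower). Of 24 coat protein genes, 2 were called higher and 8 lower, the latter including Epn1 (-1.31), Dnm3 (-0.99) and Synj2 (-0.80). Among 17 tethers 2 were higher and 0 lower, and among 25 SNARE partners 2 and 2. Rab regulators had 1 higher and 3 lower, Arf regulators 1 and 2, and ESCRT with other sorting genes 1 and 3.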

How the data were processed

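Biotin-labelled RNA of 7 whole brains was measured on 1-colour arrays, 1 per rat, per the labels. The authors deposited scanner tables with spot and local background intensity per probe, per the file headers. They also deposited log2 values, made by a method the sources at hand do not name. Each log2 column tracked the logarithm of the same array's scaled intensity (lowest r 0.9985), and any further adjustment between arrays is unknown. Here, normexp background correction (offset 50) and quantile normalization over 33849 transcript probes were run in limma 3.58.1 (R 4.3.3). Spots that carried the scanner's flag M, I or C were set to missing. Probes above background on at least 3 of 7 arrays were kept, and 29003 were tested with lmFit and eBayes. Accessions were named through RefSeq (GRCr8). Coefficients that the present arrays could not identify were left out. Named genes were the 3 smallest p per family, the called members (up to 6 per direction for scan dates), members with 2 tested probes and a set of well known members. Members, lists and rules were chosen with earlier results of these data known. The replicate numbers showed no sign of pairing: deviations of same-numbered rats correlated at 0.097, 0.057 and 0.021. Those of other pairs ran from -0.316 to 0.357, and such correlations cannot settle whether rats were paired. On simulated data the line fit recovered 70.1% of changes of 1 and 94.4% of changes of 2, with 3.59% false calls. The fit of scan dates within P recovered 11.9% and 83.3%, with 4.03% false. Of changes of 0.5, the line fit recovered 9.95% and the fit of scan dates 0%. In the data that fit did call members near this size, such as Arl14ep (0.52), so the simulated setting may not match it. Figures were drawn with matplotlib 3.10.9. The values of 1 member called between scan dates are not reported here.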

Additional observations from a re-analysis of the deposited data

Results flagged for a closer look

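Snx27 read 7.89 in P 3, against 8.23, 8.19 and 8.22 in P 1, P 2 and P 4. The gap from P 3 to the nearest other P rat was a larger share of the range of the 4 values than Dixon's critical value for 4 values allows. It was the only such value among 45 sets of 4 P values tested, where chance alone gives about 2.2.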

How the results depend on the processing

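Between the lines, 0 of 80 members were called in each setting tried, except with scan date as a block (4), on the date 1 arrays alone (4) and without P 3 and P 4 (7: Arf5, Arl6ip5, Arl8b, Rab5a, Stx7, Vamp2 and Vps35l). In these exceptions 5.73%, 6.4% and 11.4% of all probes were called. Leaving out each rat in turn left the count of members called at 0. The fit with replicate number as a replicate block also called 0 members, with 104 probes called in place of 84. With scan date as a block, the 4 calls became 0 from the background-subtracted signal, 2 from normexp without the local background, 1 with median scaling, 1 with cyclic loess, 0 from the authors' log2 values and 1 from those with a variance prior that follows intensity, and leaving out single rats gave 0 to 5. The fit without P 1 and P 2 has no blocked value. For scan dates within P, whose alternatives were chosen after seeing the data, the 15 calls became 0 from the subtracted signal, 24 with median scaling, 0 from the authors' values and 15 from those with the variance prior. The share of all probes called went from 16.7% to 1.99%, 23.9%, 0.0138% and 15.6%. Without single rats there were 2 to 15 calls, beside 1.37% to 16.7% of all probes. Genes of the pathway lists went from 0 calls to 12 with the date block, 15 on date 1 alone and 19 without P 3 and P 4. The share of all probes called went from 0.29% to 5.73%, 6.4% and 11.4% in these settings. The lists had 1 call without P 1 and P 2 (0.652% of all probes) and 0 to 1 without single rats (0.176% to 0.417%). Of 1004 alternative values of 46 members' line differences, 89 changed sign, none of them called, and 15 became called. The 75 values of the 4 blocked members and the 215 of 12 members between dates kept their sign, 32 and 57 of them without a call. The cause of these changes was not tested. With 7 arrays, differences under about 0.5 could seldom be called.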
